A study of Mus musculus with 9 samples.

Results

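The 10 genes described here encode transcription factors and transcriptional regulators of the lung epithelial lineage, namely Nkx2-1, Foxa1, Foxa2, Gata6, Sox9, Etv5, Cebpa, Id2, Foxp2 and Nr2f2. They were found by symbol in the annotation of the arrays, with each gene read through 1 transcript cluster, a group of probes spread along its exons. Where a gene had several clusters, the brightest on average was taken. All 10 were found among the 22180 genes that the arrays name, and only Etv5 had another cluster. RNA came from lung organoids, which are cell clusters grown from dissociated lung in a basement membrane gel, and was hybridised to 9 arrays of the Affymetrix Mouse Gene 2.0 ST type. CSD14 (3 arrays) holds organoids of cigarette smoke (CS) exposed mice at culture day 14, CSD5 (3 arrays) holds organoids of such mice at culture day 5, and ND14 (3 arrays) holds organoids of naïve mice, kept in clean air, at culture day 14. All mice were adult male BALB/c of 8 to 12 weeks with no genetic change stated, and whole-body CS exposure lasted 12 weeks. No sorting of the lung cells before culture is described. Organoids grew for 6 days in proliferation medium with 5% serum and then in differentiation medium with 2% serum, with or without ROCK and TGF-β inhibitors. CSD14 and ND14 thus shared the culture day and differed in exposure, CSD14 and CSD5 shared the exposure and differed in culture day and medium, and CSD5 and ND14 differed in all of these. The titles number the arrays as biological replicates. The sources do not say whether arrays of a group were of different animals or wells, and the p-values speak only of the spread among these arrays, which may be technical.

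Nkx2-1 is the homeobox factor that marks lung epithelium from its first appearance in the foregut, and with the forkhead factors Foxa1 and Foxa2 and the zinc finger factor Gata6 it drives surfactant and secretory genes. Sox9, Etv5 and Id2 mark the distal tip progenitors of the developing mouse lung, where the ETS factor Etv5 is switched on by fibroblast growth factor (FGF) signalling and Id2, which lacks a DNA-binding domain, restrains basic helix-loop-helix factors. Cebpa is needed for maturation of alveolar type 2 cells, the surfactant-producing cells of the alveolus. The forkhead repressor Foxp2 is expressed in distal airway epithelium, and Nr2f2 (COUP-TFII) is an orphan nuclear receptor best known from mesenchyme, veins and lymphatic endothelium.

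Values are log2 signals, so a difference of 1 is a doubling, and a level of one gene is not set against that of another because probes differ in brightness. Array medians lay between 2.79 and 3.04, and signals near these medians are not parted from background. Rose and fell are used of a gene only where limma, fitted to all 34472 transcript clusters over the 9 arrays, gave a Benjamini-Hochberg adjusted p under 0.05. CSD5 replicate 1 stood apart from its group, since over all transcript clusters its mean correlation was 0.963 with CSD14, 0.973 with CSD5 replicates 2 and 3 and 0.991 with ND14, so the counts and calls of the factors that rest on CSD5 are given with and without it. Among the 10 factors, its value lay nearer the ND14 mean in 8 and nearer the mean of CSD5 replicates 2 and 3 in 2, Nkx2-1 and Cebpa. On the surfactant gene Sftpc it lay with its own group, at 9.49 to 11.49 on the 3 CSD5 arrays, against 5.74 to 5.79 on the ND14 arrays. Epcam, the pan-epithelial adhesion molecule, stood at 8.26 to 8.38 in CSD14, 8.0 to 8.40 in CSD5 and 7.60 to 7.73 in ND14. The collagen Col3a1 (2.76 to 2.93) and the endothelial Pecam1 (2.30 to 2.62) lay at or under the array medians in all groups. They do not stand for all stromal markers. Vim, of the same mesenchymal list as Col3a1, had 4.58 to 4.70 in CSD14, 4.96 to 5.53 in CSD5 and 4.55 to 4.70 in ND14.

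The first comparison asked how the factors differed with smoke exposure at day 14. In CSD14 against ND14, 6 of the 10 factors rose (Nkx2-1, Foxa1, Etv5, Id2, Foxp2 and Nr2f2), 1 fell (Sox9) and 3 did not pass (Foxa2, Gata6 and Cebpa). Over all 34472 transcript clusters, 9.15% passed, 5.48% higher and 3.66% lower in CSD14. The 10 factors had a median log2 fold change of 0.88, against 0.00 for all transcript clusters. Without CSD5 replicate 1, which enters only through the estimate of the spread, the same 7 passed, beside 11.9% of all transcript clusters. The arrays of CSD14 and ND14 did not overlap for the 6 factors that rose or for Sox9, where over all transcript clusters 13.1% lay wholly higher and 11.2% wholly lower in CSD14. The thresholds that the study used, more than a 2-fold change at an unadjusted p under 0.05, were met by 4 of the 10, Foxa1, Etv5, Foxp2 and Nr2f2, and by 4.75% of all transcript clusters. These organoids are mixtures, so more cells of a type and more RNA per cell cannot be told apart in any value below.

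**Figure D1:**
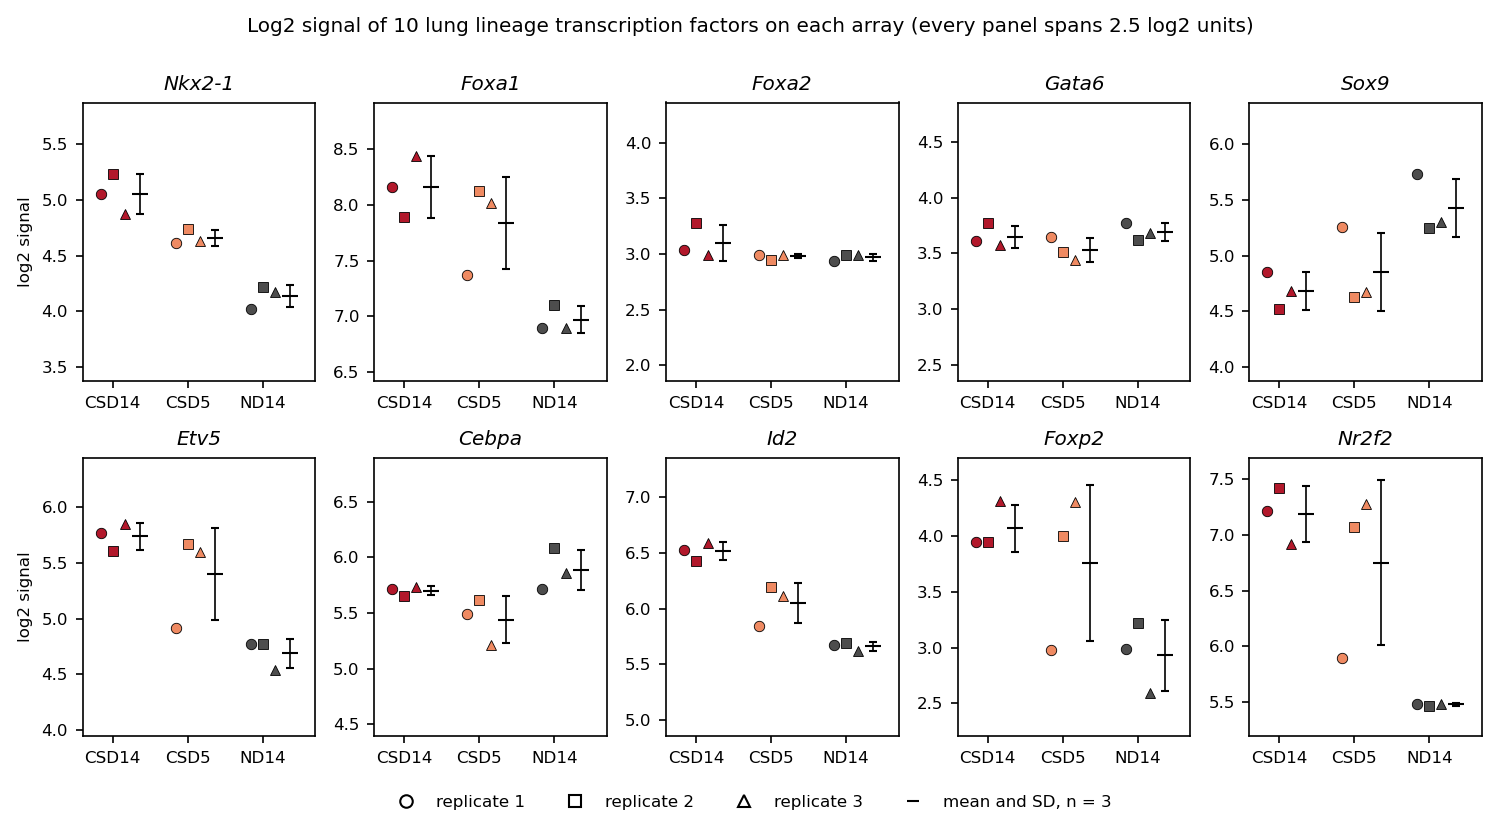
Log2 signal (vertical axis) of the 10 factors on each array of CSD14, CSD5 and ND14, 1 panel per gene, with symbols for replicates 1 to 3 and bars for the mean and SD (n = 3). Every panel spans 2.5 log2 units but starts at its own level. In the panels of Nkx2-1, Foxa1, Etv5, Id2, Foxp2 and Nr2f2 the CSD14 arrays sit above the ND14 arrays, in that of Sox9 below them, and CSD5 replicate 1 (circle) often sits near ND14.

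Of the factors that specify lung endoderm, both Nkx2-1 and Foxa1 rose. Nkx2-1 (transcript cluster 17281299) had log2 signals of 5.05, 5.23 and 4.87 in CSD14, 4.61, 4.74 and 4.63 in CSD5 and 4.02, 4.22 and 4.17 in ND14. The 3 groups did not overlap, with CSD5 between the others. In CSD14 against ND14 Nkx2-1 rose by 0.91 (SE 0.12, 95% interval 0.64 to 1.18, limma adjusted p = 0.00212), a 1.88-fold change. Foxa1 (17281337), a pioneer factor that opens chromatin for Nkx2-1 and other factors, had 8.16, 7.89 and 8.44 in CSD14, 7.37, 8.13 and 8.02 in CSD5 and 6.90, 7.10 and 6.90 in ND14. Its CSD14 and CSD5 arrays overlapped, and both groups lay wholly above ND14. Foxa1 rose 2.29-fold in CSD14 against ND14 (log2 1.20, SE 0.21, 95% interval 0.73 to 1.66, limma adjusted p = 0.00671).

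Foxa2 and Gata6, the partners of Nkx2-1 and Foxa1 on surfactant promoters, did not pass. Foxa2 (17392561) had signals of 3.04, 3.28 and 2.99 in CSD14, 2.99, 2.95 and 2.99 in CSD5 and 2.94, 2.99 and 2.99 in ND14. These lie beside the array medians in all groups, so the array gives little information on Foxa2, whose difference was 0.13 (95% interval -0.11 to 0.37, limma adjusted p = 0.624). Gata6 (17348400) had 3.61, 3.77 and 3.58 in CSD14, 3.65, 3.51 and 3.44 in CSD5 and 3.77, 3.62 and 3.68 in ND14. The groups overlapped, little above the medians, with a difference of -0.04 between CSD14 and ND14 (95% interval -0.28 to 0.21, limma adjusted p = 0.919). The interval leaves room for a Gata6 level up to 0.28 lower or 0.21 higher in CSD14.

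The 3 factors of distal tip progenitors did not move together, since Etv5 and Id2 rose and Sox9 fell. Etv5 (17329298) had signals of 5.77, 5.61 and 5.85 in CSD14, 4.92, 5.67 and 5.60 in CSD5 and 4.77, 4.77 and 4.54 in ND14. All CSD14 and CSD5 arrays lay above all ND14 arrays, CSD5 replicate 1 narrowly. Etv5 rose 2.07-fold in CSD14 against ND14 (log2 1.05, SE 0.19, 95% interval 0.62 to 1.48, limma adjusted p = 0.00788). Its other transcript cluster (17547943) had 5.81, 5.17 and 5.07 in CSD14, 4.63, 5.07 and 4.93 in CSD5 and 4.55, 4.60 and 4.93 in ND14, and did not pass (0.66, SE 0.21, limma adjusted p = 0.0905). On that cluster too the CSD14 arrays lay above the ND14 arrays. Id2 (17280310) had 6.53, 6.43 and 6.59 in CSD14, 5.84, 6.19 and 6.11 in CSD5 and 5.67, 5.69 and 5.62 in ND14. The 3 groups were wholly apart, in that order from high to low, and Id2 rose 1.81-fold in CSD14 against ND14 (log2 0.86, SE 0.12, limma adjusted p = 0.00236).

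Sox9 (17257946), which keeps tip progenitors from differentiating, was the only factor of the 10 to fall. It had signals of 4.85, 4.52 and 4.68 in CSD14, 5.26, 4.63 and 4.67 in CSD5 and 5.73, 5.25 and 5.30 in ND14. CSD14 lay wholly under ND14, and CSD5 replicate 1 lay beside the lower ND14 arrays while CSD5 replicates 2 and 3 lay among the CSD14 arrays. Sox9 fell by 0.74 on the log2 scale (SE 0.20, 95% interval -1.18 to -0.30, limma adjusted p = 0.0438), and the ND14 signals were 1.67 times those of CSD14. This call was lost on leaving out any 1 array other than CSD5 replicate 1 (adjusted p = 0.0512 to 0.163, log2 fold change -0.83 to -0.59) and held without CSD5 replicate 1 (adjusted p = 0.00961).

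Cebpa (17476728) had signals of 5.72, 5.65 and 5.73 in CSD14, 5.49, 5.62 and 5.21 in CSD5 and 5.72, 6.08 and 5.86 in ND14. CSD14 and ND14 overlapped narrowly, and all CSD5 arrays lay under both. The CSD14 difference from ND14 was -0.19 (SE 0.14, 95% interval -0.49 to 0.12, limma adjusted p = 0.566). Foxp2 (17456084) had 3.95, 3.95 and 4.32 in CSD14, 2.98, 4.0 and 4.31 in CSD5 and 2.99, 3.22 and 2.59 in ND14. Its ND14 signals and that of CSD5 replicate 1 lay at about the array medians, so the size of the Foxp2 change is not exact. Foxp2 rose by 1.14 (SE 0.31, 95% interval 0.45 to 1.83, limma adjusted p = 0.0485). The call was lost without CSD5 replicate 2 or any 1 CSD14 or ND14 array (adjusted p = 0.0665 to 0.174), and after median centring (adjusted p = 0.0503), quantile normalization (adjusted p = 0.0531) or with the replicate number as a block (adjusted p = 0.0572).

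Nr2f2 (17492066) had the largest log2 fold change of the 10 in CSD14 against ND14. Its signals were 7.22, 7.42 and 6.92 in CSD14, 5.90, 7.07 and 7.28 in CSD5 and 5.48, 5.47 and 5.48 in ND14. The ND14 arrays agreed within 0.01, the CSD14 arrays lay far above them, and CSD5 was divided, with replicate 1 near ND14 and replicates 2 and 3 among CSD14. Nr2f2 rose 3.27-fold (log2 1.71, SE 0.30, 95% interval 1.03 to 2.39, limma adjusted p = 0.00745). Nr2f2 is among the genes that the study lists for these arrays, so its direction is not independent evidence. The calls of Nkx2-1, Foxa1, Etv5, Id2 and Nr2f2 held on leaving out each of the 9 arrays in turn, with adjusted p of at most 0.0399.

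**Figure D2:**
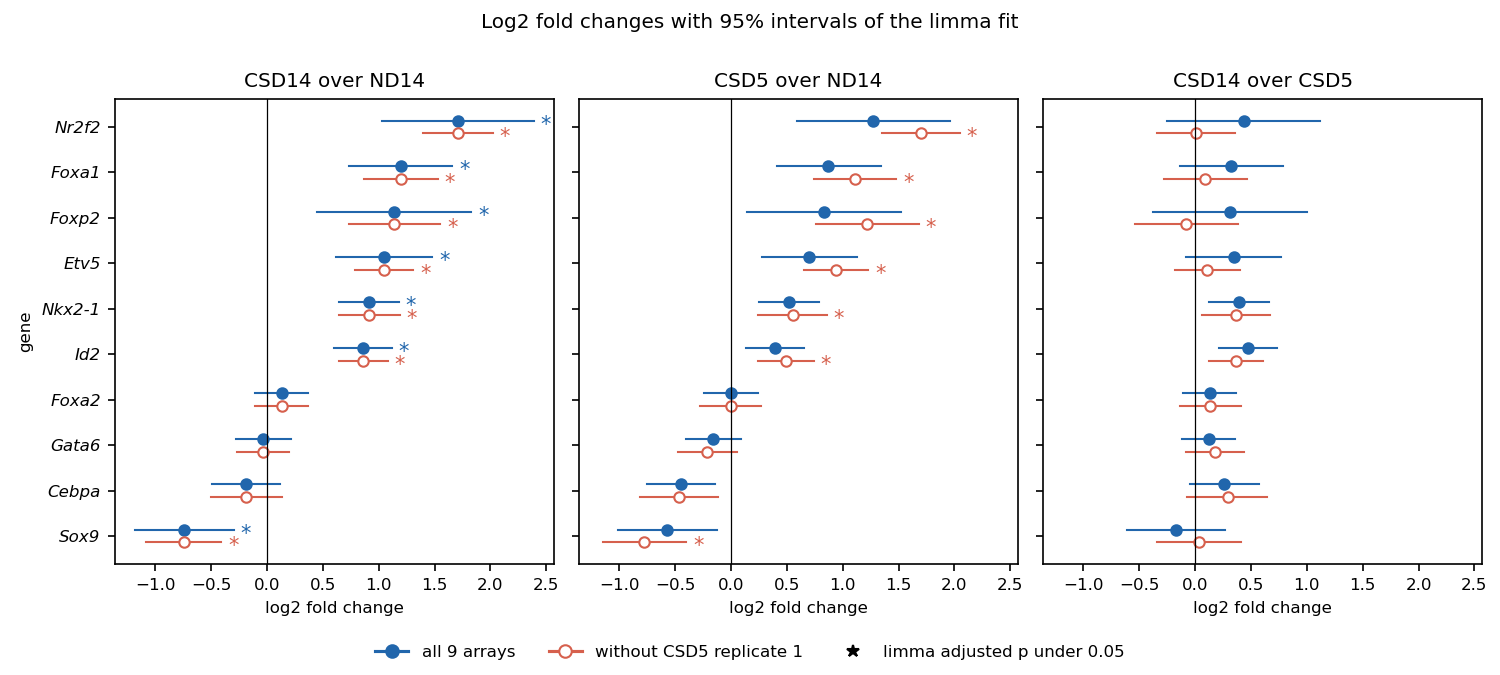
Log2 fold change (horizontal axis) with its 95% interval from limma for each factor in CSD14 over ND14, CSD5 over ND14 and CSD14 over CSD5, from all 9 arrays (filled) and without CSD5 replicate 1 (open), with a star where the adjusted p was under 0.05. In CSD14 over ND14 the same 7 factors carry a star in both fits, in CSD5 over ND14 none does with all 9 arrays and 7 do without CSD5 replicate 1, and in CSD14 over CSD5 none does in either.

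The start-site sequences of 3 of the factors that rose are shown because these genes moved together and can be read for sites of the families described here. RefSeq windows (GRCm38.p6) of 250 bases before to 50 after the start were searched for 7 of the 10 factors, in 10 windows, out of 32851 windows. Windows of factors on the chromosome of Gata6 were left out, so Gata6 was not searched. Foxa1 lies at chr12:57546062-57546361, Etv5 at chr16:22439521-22439820 and Nkx2-1 at chr12:56536859-56537158, all on the minus strand and written 5′ to 3′ along the gene, and capitals mark matches to the motifs given after them.
Foxa1: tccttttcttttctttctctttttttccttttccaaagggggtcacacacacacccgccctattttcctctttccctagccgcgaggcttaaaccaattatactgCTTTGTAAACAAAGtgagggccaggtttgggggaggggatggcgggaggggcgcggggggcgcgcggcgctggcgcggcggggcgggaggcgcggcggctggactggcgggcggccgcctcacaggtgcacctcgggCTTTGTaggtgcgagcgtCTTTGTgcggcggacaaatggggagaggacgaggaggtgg
Etv5: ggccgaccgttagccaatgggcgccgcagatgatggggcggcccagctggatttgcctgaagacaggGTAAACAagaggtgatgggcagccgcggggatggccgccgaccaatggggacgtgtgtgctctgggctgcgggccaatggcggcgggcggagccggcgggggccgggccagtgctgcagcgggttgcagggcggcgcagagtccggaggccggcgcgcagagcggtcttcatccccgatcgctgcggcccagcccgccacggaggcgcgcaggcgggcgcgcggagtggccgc
Nkx2-1: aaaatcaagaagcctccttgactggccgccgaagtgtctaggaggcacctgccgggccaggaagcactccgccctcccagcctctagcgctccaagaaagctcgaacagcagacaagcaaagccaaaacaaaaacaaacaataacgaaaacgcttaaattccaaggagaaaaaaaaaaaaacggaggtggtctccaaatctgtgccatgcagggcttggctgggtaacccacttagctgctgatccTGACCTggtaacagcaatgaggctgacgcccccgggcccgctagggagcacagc

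Of 7 motifs searched on both strands, the forkhead core TGTTTAC was in the Foxa1 window and an Etv5 window, and in 3.65% of all 32851 windows. In Foxa1 the match (GTAAACA, from base -141) overlapped matches of the SOX core ACAAAG on either side (from bases -145 and -137), and further SOX matches stood at bases -8 and 11. The forkhead match of Etv5 began at base -183. The SOX core was in 18.7% of all windows, and also in another Etv5 window and in Foxa2. The nuclear receptor half-site AGGTCA was in the Nkx2-1 window (as TGACCT from base -4) and in 16.3% of all windows, and the GATA core AGATAA was in Foxa2 and in 11.2%. The NKX2 core CAAGTG (13.6% of all windows), the ETS core CCGGAAG (8.86%) and the C/EBP core TTGCNNAA (10.8%) matched none of the 10 windows. These matches describe letters in short windows and are not measured binding sites.

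Across the 9 arrays the 6 factors that rose followed each other, with Pearson correlations between 0.74 and 0.98 over their 15 pairs. Foxa1 and Etv5 were the closest pair (r = 0.98), and Sox9 ran opposite to all 6 (r between -0.92 and -0.83). These correlations are over 9 arrays in 3 groups, so the group means and CSD5 replicate 1 set most of them. Of all genes with a mean above the median of all transcript clusters, those most like Etv5 were the retinoic acid receptor Rarb (r = 0.997), Cnnm2 (r = 0.994) and Usp18 (r = 0.994), and those most like Foxa1 were Cnnm2 (r = 0.984), Etv5 (r = 0.983) and the growth factor Ptn (r = 0.982). Nkx2-1 was most like Trp53rka (r = 0.972), the cell cycle inhibitor locus Cdkn2a (r = 0.972) and Zswim5 (r = 0.970), and Id2 most like Oat (r = 0.996), Ffar4 (r = 0.996) and Zdhhc1 (r = 0.994). Foxp2 was most like Atp11a (r = 0.995), Atf6 (r = 0.983) and Has2 (r = 0.978), and Nr2f2 most like Plce1 (r = 0.991), Pcx (r = 0.990) and D17H6S56E-5 (r = 0.989). Sox9 was most like Gm94 (r = 0.976), Ank3 (r = 0.970) and Scnn1b (r = 0.967), a subunit of the epithelial sodium channel.

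**Figure D3:**
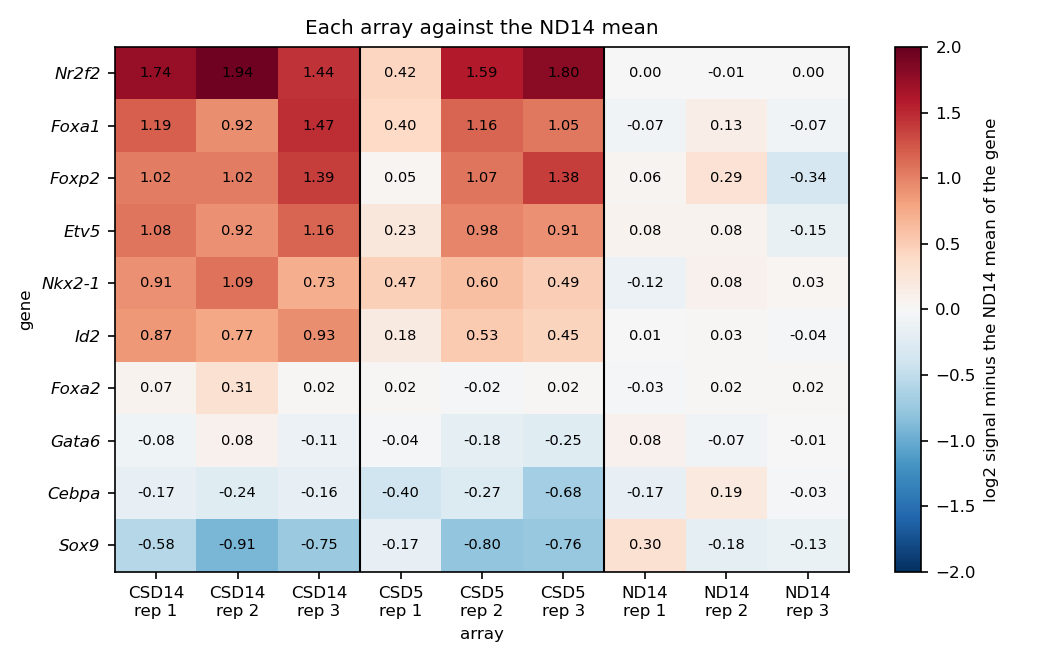
Log2 signal of each factor (rows) on each of the 9 arrays (columns) minus the mean of the 3 ND14 arrays for that gene, as colour and as a printed value. The CSD14 arrays and CSD5 replicates 2 and 3 show like patterns, with Nr2f2 at 1.44 to 1.94 and Sox9 at -0.91 to -0.58 over them, while CSD5 replicate 1 lies between -0.40 and 0.47 for all 10 genes, at 0.42 for Nr2f2 and 0.05 for Foxp2.

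The comparison of CSD5 with ND14 set CS organoids before the medium change against naïve organoids at day 14. With all 9 arrays 0 of the 10 factors passed limma's adjusted p, beside 0.0029% of all transcript clusters, which is 1 cluster, that of Sftpc. Under an unadjusted p of 0.05 there were 8 of the 10 factors, beside 13.8% of all transcript clusters. Nr2f2 differed by 1.27 (SE 0.30, limma adjusted p = 0.194) and was the only factor at the study's thresholds, which 1.98% of all transcript clusters reached. Foxa1 differed by 0.87 (SE 0.21, limma adjusted p = 0.194), Nkx2-1 by 0.52 (SE 0.12, limma adjusted p = 0.194), Etv5 by 0.70 (limma adjusted p = 0.209) and Id2 by 0.39 (limma adjusted p = 0.229). For these 5 genes every CSD5 array lay above every ND14 array, as did 4.31% of all transcript clusters. On the other transcript cluster of Etv5 (17547943) the 2 groups overlapped, with a difference of 0.18 (limma adjusted p = 0.714). Cebpa was the 1 factor with every CSD5 array under every ND14 array, as were 8.97% of all transcript clusters, with a difference of -0.45 (SE 0.14, limma adjusted p = 0.231). Foxp2 differed by 0.83 (limma adjusted p = 0.287) and Sox9 by -0.57 (limma adjusted p = 0.26), and for both CSD5 replicate 1 lay within the range of ND14.

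CSD5 replicate 1 decided these counts. Without it 6 factors rose and 1 fell in CSD5 against ND14, beside 3.4% of all transcript clusters higher and 6.27% lower in CSD5. That array was singled out in these same data for its likeness to ND14. Leaving out the CSD5 array nearest to ND14 tends to enlarge the differences and narrow the spread, so these calls are not independent evidence. Nr2f2 then rose by 1.70 (limma adjusted p = 0.000132), Foxp2 by 1.22 (limma adjusted p = 0.00475), Foxa1 by 1.11 (limma adjusted p = 0.00241), Etv5 by 0.94 (limma adjusted p = 0.00145), Nkx2-1 by 0.55 (limma adjusted p = 0.035) and Id2 by 0.49 (limma adjusted p = 0.0214). The other transcript cluster of Etv5 did not pass (0.31, limma adjusted p = 0.425). Sox9 fell by 0.78 on the log2 scale (limma adjusted p = 0.0182), and Cebpa stood at -0.47 (limma adjusted p = 0.0981). The 7 genes that passed are the same as in CSD14 against ND14, and both comparisons share the ND14 arrays. Both remaining CSD5 arrays lay above all ND14 arrays for the 6 factors that rose, and below them for 3, Sox9, Cebpa and Gata6. With only 2 arrays left in CSD5, 9.34% of all transcript clusters lay wholly higher and 31.1% wholly lower. Marker lists moved in the same fit, and their part in these changes was not tested. Without CSD5 replicate 1, 16 of 23 alveolar type 2 genes rose and 0 fell (median 1.0), 10 of 14 basal and squamous genes fell and 1 rose (median -1.11), and 6 of 15 leukocyte markers rose and 3 fell (median 0.45). With all 9 arrays, 1, 0 and 0 genes of these lists passed. The estimate for Nkx2-1 moved little with this array, since CSD5 replicate 1 had 4.61 beside 4.74 and 4.63 in replicates 2 and 3.

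CSD14 against CSD5 asked how the factors differed between culture days of CS organoids. Of the 10 factors 0 passed limma's adjusted p, with or without CSD5 replicate 1, beside 2.41% of all transcript clusters with all 9 arrays and 4.11% without it. Under an unadjusted p of 0.05 there were 2, Id2 and Nkx2-1, beside 16.1% of all transcript clusters. Nearest to passing was Id2, at 0.47 (SE 0.12, limma adjusted p = 0.0743) with all 9 arrays and 0.37 (limma adjusted p = 0.1) without CSD5 replicate 1. Nkx2-1 differed by 0.39 (SE 0.12, limma adjusted p = 0.143) and Cebpa by 0.26 (limma adjusted p = 0.399). For Id2, Nkx2-1 and Cebpa every CSD14 array lay above every CSD5 array, as did 14.0% of all transcript clusters, whose median difference was 0.09. Without CSD5 replicate 1 this held for 4 factors, with Gata6 added, and for 30.2% of all transcript clusters. Nr2f2 differed by 0.44 with all 9 arrays and by 0.01 without CSD5 replicate 1 (95% interval -0.34 to 0.36), and Foxp2 by 0.31 and -0.08. Without that array Foxa1 stood at 0.09 and Sox9 at 0.03. The interval of Nr2f2 leaves room for a level up to 0.34 lower or 0.36 higher at day 14, so the 2 days are not shown to be alike.

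Among 40 other lung transcription factors measured, 6 rose, 5 fell and 29 did not pass in CSD14 against ND14, with a median of 0.03. Without CSD5 replicate 1 these counts were 9, 8 and 23. Etv1, the ETS factor of the same PEA3 family as Etv5, rose by 2.04 (SE 0.35, limma adjusted p = 0.00654), while Etv4 of that family stood at -0.02 (limma adjusted p = 0.959). The largest change of the list was the fall of Klf4, a zinc finger factor of epithelial differentiation, by 2.11 (limma adjusted p = 0.0118). Elf3, an epithelium-specific ETS factor, rose by 2.01 (SE 0.28, limma adjusted p = 0.00246) and the Iroquois homeobox factor Irx3 by 1.43 (SE 0.17, limma adjusted p = 0.00158). Elf5, an ETS factor of distal lung and glandular epithelium, fell by 1.21 (limma adjusted p = 0.00841), and the homeobox factor Hoxa5 rose by 0.68 (limma adjusted p = 0.0149). Elf5 in CSD14 (3.01 to 3.47) and Hoxa5 in ND14 (2.87 to 3.05) lay near the array medians, so these sizes are not exact. Cebpd rose by 1.41 (SE 0.26, limma adjusted p = 0.00878), while Cebpb stood at -0.09 and Cebpa did not pass. Of the forkhead factors, Foxp1 fell by 0.66 (limma adjusted p = 0.0469) where Foxp2 rose, and Foxa3 (0.10) and Foxp4 (0.02) did not pass. The ciliated cell factor Foxj1 rose by 0.65 (limma adjusted p = 0.0456), and the airway factor Sox2 stood at 0.85 (limma adjusted p = 0.0701). Hopx, a homeodomain-only protein of alveolar type 1 cells, fell by 1.36 (SE 0.20, limma adjusted p = 0.0029), to 3.02 to 3.31 in CSD14, again near the array medians. The basal cell factor Trp63 fell by 0.53 (limma adjusted p = 0.0179). The other nearest relatives did not pass, with Nr2f1 at -0.18, Nr2f6 at 0.14, Gata4 at -0.25 and Gata5 at 0.11.

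Genes upstream and downstream of Etv5 and Id2 were read from lists of their pathways. In CSD14 against ND14, 15 genes of FGF signalling had a median of 0.33, with 5 that rose, 1 that fell and 9 that did not pass. The receptor Fgfr3 rose by 1.04 (SE 0.11, limma adjusted p = 0.000838), and the feedback inhibitors Dusp6 (1.71, limma adjusted p = 0.00552), Spry2 (0.90, limma adjusted p = 0.0483) and Spred2 (0.80, limma adjusted p = 0.0301) rose too. Etv1, counted above, was the fifth. The phosphatase Dusp4 fell by 1.24 (limma adjusted p = 0.00253), and Fgfr2, the receptor of distal lung epithelium, stood at 0.14 (limma adjusted p = 0.572). The list of 20 genes of bone morphogenetic protein (BMP) signalling and the Id family had a median of 0.00, and 2 of them rose, 3 fell and 15 did not pass. The receptor Bmpr1b rose by 1.64 (SE 0.21, limma adjusted p = 0.00187) and Id4 by 0.51 (limma adjusted p = 0.0292). Bmpr1b had 2.89 to 3.20 in ND14, near the array medians, so the size of its change is not exact. The ligands Bmp2 (-1.46, limma adjusted p = 0.0139) and Bmp7 (-0.84, limma adjusted p = 0.00763) and the decoy receptor Bambi (-1.15, limma adjusted p = 0.0362) fell. Of the relatives of Id2, Id1 stood at -0.21 (limma adjusted p = 0.768) and Id3 at -0.39 (limma adjusted p = 0.154).

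Of 23 genes of alveolar type 2 cells, many of them known targets of Nkx2-1, the Foxa factors and Cebpa, 7 rose in CSD14 against ND14, 1 fell and 15 did not pass (8, 3 and 12 without CSD5 replicate 1). Their median was 0.20. The membrane mucin Muc1 rose by 3.08 (limma adjusted p = 0.000724), the surfactant proteins Sftpd by 2.08 (limma adjusted p = 0.00278) and Sftpb by 2.05 (limma adjusted p = 0.00458), and the lamellar body transporter Abca3 by 1.11 (limma adjusted p = 0.00654). Sftpa1 stood at 0.23 (limma adjusted p = 0.865) and Lamp3 at 0.18 (limma adjusted p = 0.848). The gene that fell was Fasn (-0.57, limma adjusted p = 0.0059). Napsa stood at -0.58 (limma adjusted p = 0.557) and fell without CSD5 replicate 1 (limma adjusted p = 0.00486). In CSD14, Lamp3 (2.59 to 2.94) and Napsa (2.54 to 2.80) lay near or under the array medians. Sftpc, the gene most particular to alveolar type 2 cells, had 3.95 to 4.55 in CSD14, 9.49 to 11.49 in CSD5 and 5.74 to 5.79 in ND14. Sftpc was thus far higher in CSD5 than in ND14 (4.98, limma adjusted p = 0.0206, and 5.62 without CSD5 replicate 1) and fell by 6.51 in CSD14 against CSD5 (limma adjusted p = 0.000356, and by 7.14 without CSD5 replicate 1). With all 9 arrays none of the 10 factors passed in those 2 comparisons. Their differences ran from -0.57 to 1.27 in CSD5 against ND14 and from -0.17 to 0.47 in CSD14 against CSD5. Sftpc changed more than any of them in both. In CSD5 against ND14 no transcript cluster but that of Sftpc passed. Under an unadjusted limma p of 0.05 there were 8 of the 10 factors, beside 13.8% of all transcript clusters. Of these 8, Sox9 and Cebpa were lower in CSD5 and the others higher. A factor that did not pass is not shown to be unchanged. In CSD14 against ND14 Sftpc stood at -1.52 with all 9 arrays (SE 0.43, limma adjusted p = 0.0597) and passed as a fall of the same size without CSD5 replicate 1 (SE 0.15, limma adjusted p = 0.000125). Airway secretory genes had a median of 0.54 in CSD14 against ND14, with 8 of 14 up, 1 down and 5 that did not pass, and the club cell gene Scgb1a1 rose by 1.24 (limma adjusted p = 0.000426). Among 18 alveolar type 1 genes there were 4 that rose and 5 that fell (median -0.08).

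Markers of other epithelial states moved together with the factors. In CSD14 against ND14, 11 of 14 basal and squamous genes fell, 0 rose and 3 did not pass, also without CSD5 replicate 1. Their median was -2.76, and the stress keratin Krt16 fell by 5.77 (limma adjusted p = 0.000197). The mean log2 signal of this list was 6.40 to 6.55 in CSD14, 7.83 to 9.07 in CSD5 and 9.08 to 9.14 in ND14. Among 10 pan-epithelial genes there were 6 that rose and 0 that fell, with list means of 8.42 to 8.48 in CSD14, 7.87 to 8.21 in CSD5 and 7.81 to 7.90 in ND14. The mean over the 10 factors was 5.38 to 5.40 in CSD14, 4.90 to 5.25 in CSD5 and 4.71 to 4.84 in ND14. CSD5 replicate 1 held the highest squamous mean among the CSD5 arrays and the lowest mean over the factors. The part of these epithelial shifts in the changes of the factors was not tested.

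Markers of cells outside the epithelium were also measured. Nr2f2 is also known from mesenchyme and endothelium and Sox9 from airway cartilage, so stromal markers are given beside them. In CSD14 against ND14, 0 of 16 fibroblast and smooth muscle genes and 0 of 12 endothelial genes passed limma's adjusted p (medians 0.04 and -0.12), with 3 and 2 under an unadjusted p of 0.05. Without CSD5 replicate 1, 1 endothelial gene fell and no mesenchymal gene passed. The mesenchymal list averaged 3.15 to 3.32 in CSD14, 3.28 to 3.46 in CSD5 and 3.12 to 3.31 in ND14, and the endothelial list 2.47 to 2.67 in CSD14, 2.52 to 2.72 in CSD5 and 2.66 to 2.86 in ND14. Set against ND14, CSD5 organoids had 0 mesenchymal genes that passed with all 9 arrays (3 under an unadjusted p of 0.05), and without CSD5 replicate 1 they had 2 that rose and 1 that fell. These were the fibroblast proteoglycan Dcn (2.80, limma adjusted p = 0.00231), the intermediate filament Vim (0.79, limma adjusted p = 0.00272) and the surface glycoprotein Thy1 (-0.85, limma adjusted p = 0.0269). Dcn had 3.29 to 6.63 on the 3 CSD5 arrays, against 2.84 to 3.16 in ND14. Of 15 leukocyte markers 1 rose and 2 fell in CSD14 against ND14 (2 and 2 without CSD5 replicate 1), and with all 9 arrays these were Cd14 (1.67, limma adjusted p = 0.00609), S100a8 (-2.63, limma adjusted p = 0.0296) and S100a9 (-3.74, limma adjusted p = 0.00886), all known from epithelial cells as well. In CSD14, S100a8 (1.68 to 2.13) and S100a9 (2.85 to 3.38) lay under or near the array medians, so the sizes of their falls are not exact. The leukocyte list averaged 3.57 to 3.64 in CSD14, 3.99 to 4.22 in CSD5 and 3.94 to 3.99 in ND14. Leukocyte genes of CSD5 set against ND14 gave 0 calls with all 9 arrays (10 under an unadjusted p of 0.05). Without CSD5 replicate 1, 6 of them rose and 3 fell, and those that rose included the adaptor Tyrobp (1.85, limma adjusted p = 0.000767), the integrin Itgax (1.78, limma adjusted p = 2.84e-05) and the macrophage receptor Csf1r (1.21, limma adjusted p = 0.000809). In ND14, Itgax (2.40 to 2.47) lay under the array medians, so the size of its change is not exact. The common leukocyte antigen Ptprc lay beside the array medians in all groups (2.35 to 3.28).

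**Figure D4:**
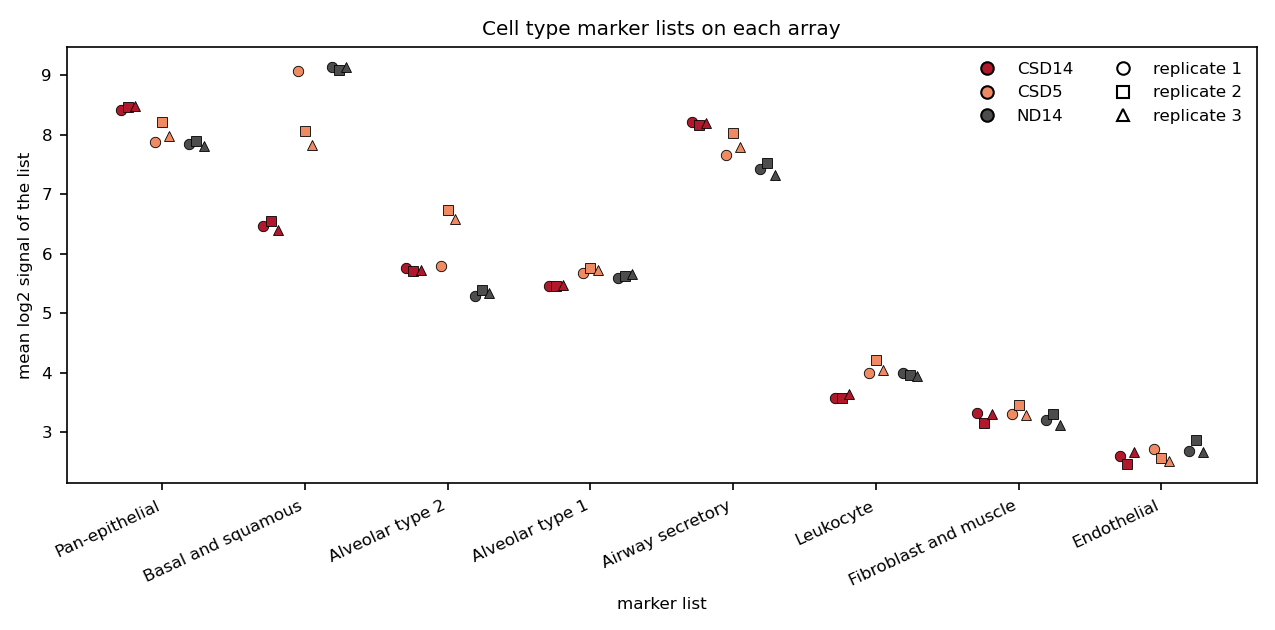
Mean log2 signal (vertical axis) of 8 marker lists on each array, with colours for CSD14, CSD5 and ND14 and symbols for replicates 1 to 3; heights are to be compared within a list only. Basal and squamous genes sit at 6.40 to 6.55 in CSD14 and 9.08 to 9.14 in ND14, with CSD5 replicate 1 beside ND14, while fibroblast and endothelial lists stay between 2.47 and 3.46 in all groups.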

How the data were processed

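Organoid RNA was labelled from 10 ng for each of 9 arrays, 3 per group, and the labels of the samples gave the groups and replicate numbers. Each deposited value is a log2 signal of a transcript cluster, made by the authors with background correction and normalization in the software Transcriptome Analysis Console. The algorithm and genome build are not given in the sources used here. No scaling or filter was added, and the number of arrays limits the precision.

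The R 4.3.3 package limma 3.58.1 was fitted to all 34472 transcript clusters, with 1 mean per group over all 9 arrays, empirical Bayes moderation and Benjamini-Hochberg adjustment over all transcript clusters. An exact test of 3 arrays against 3 cannot go under p = 0.1, so the moderated test was used. Signals of a gene with several clusters came from the cluster with the highest mean. The 10 factors and all gene lists, which rest on general knowledge, were chosen with earlier results of these data known. Named are all 10 factors, the 3 genes most correlated with each called factor, up to 4 genes per list with the smallest adjusted p, and nearest relatives and surfactant genes. Other genes named (Epcam, Col3a1, Pecam1, Ptprc, Dcn, Foxj1, Trp63, Spry2, Spred2, Bambi, Fgfr2, Klf4, Elf5, Hoxa5, Vim, Thy1, Tyrobp, Itgax, Csf1r, Lamp3, Fasn, Napsa, Tff2, Pax9, Nkx2-9 and Slc25a21) were chosen after their values were seen. Genes of a list that the array annotation did not match are not analysed here. Motifs and start sites came from RefSeq windows of GRCm38.p6.

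Alternative settings were the 2 groups compared fitted alone, robust limma-trend, centring on array medians, quantile normalization, leaving out clusters under the 40th percentile, weighted arrays, a block for the replicate number, the mean of all clusters of a gene, a fold change over 1.5, and each array left out in turn. Scripts were tested on simulated data. Plots used matplotlib 3.10.9 (Python 3.11.15).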

Additional observations from a re-analysis of the deposited data

How the results depend on the processing

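Over 510 values of 30 log2 fold changes (each member in each comparison), 469 kept their direction and their side of the threshold, 15 newly passed, 18 no longer passed and 8 changed sign. Leaving out 1 array at a time, the members that rose in CSD14 against ND14 numbered 5 to 6 and those that fell 0 to 1. Of all 34472 transcript clusters, 1102 to 2229 then rose and 661 to 1861 fell. In CSD5 against ND14 the members that rose numbered 0 to 6 and those that fell 0 to 1. Of all transcript clusters 1173 rose and 2160 fell there without CSD5 replicate 1, and 0 passed with any other array left out. With array weights 6 members rose and 1 fell in CSD5 against ND14, beside 2283 and 3617 of all 34472 transcript clusters. In CSD14 against CSD5 1 member then rose (Id2, 0.37, limma adjusted p = 0.0455), beside 1833 of all transcript clusters. With a fold change over 1.5 in place of 2, the study's thresholds took 7 members in place of 4 in CSD14 against ND14 and 4 in place of 1 in CSD5 against ND14. The share of all transcript clusters at the looser threshold is not given here, so these counts do not set the members apart from other genes. All sign changes were of differences that had not passed. With array weights Foxa2 stood at -0.0028 in CSD5 against ND14 and Sox9 at 0.01 in CSD14 against CSD5. Leaving out 1 array at a time, Gata6 ranged from -0.10 to 0.0033 in CSD14 against ND14 and Foxa2 from -0.01 to 0.02 in CSD5 against ND14, while in CSD14 against CSD5 Sox9 ranged from -0.28 to 0.03 and Foxp2 from -0.08 to 0.58. The cause was not tested.

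Over all transcript clusters, deviations of same-numbered arrays correlated at -0.133 to -0.007 in CSD14 against ND14, at -0.00173 to 0.047 in CSD5 against ND14 and at -0.0729 to 0.0647 in CSD14 against CSD5. These values show no pairing by replicate number, but with 3 arrays per group they cannot exclude it. With the replicate number as a block, 2824 transcript clusters passed in CSD14 against ND14 in place of 3153, 0 in place of 1 in CSD5 against ND14 and 505 in place of 831 in CSD14 against CSD5. Of the members' calls only that of Foxp2 was lost under the block (1.14, limma adjusted p = 0.0572). Sox9 went the other way in CSD14 against ND14, with SE 0.12 and limma adjusted p = 0.0102 under the block, against 0.20 and 0.0438 without it. Low signals near the array medians limit Foxa2, Gata6 and Foxp2.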

Other observations

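Nkx2-1 and Foxa1 are near neighbours on their chromosome, with 5 protein-coding genes between them in the RefSeq order of GRCm38.p6, of which 3 had a transcript cluster. Between CSD14 and ND14 none of the 3 passed. Pax9, a paired-box factor of foregut endoderm, had 7.06 to 7.21 in CSD14, 6.97 to 7.67 in CSD5 and 7.67 to 7.81 in ND14, a difference of -0.60 (SE 0.16, limma adjusted p = 0.052). Nkx2-9, a close relative of Nkx2-1, stood at -0.11 (SE 0.18, limma adjusted p = 0.831), and the mitochondrial carrier Slc25a21 at 0.27 (SE 0.19, limma adjusted p = 0.543).

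Of 15 genes of gastrointestinal and hepatic fate, which lung epithelium lacking Nkx2-1 is known to switch on in mice, 0 passed limma's adjusted p in any of the 3 comparisons (1, 0 and 3 under an unadjusted p of 0.05 in CSD14 against ND14, CSD5 against ND14 and CSD14 against CSD5). Their mean log2 signal was 3.16 to 3.29 in CSD14, 3.03 to 3.24 in CSD5 and 3.07 to 3.24 in ND14. These means lie near the array medians, so the list as a whole gives little information on these genes. Under the same test without CSD5 replicate 1, 1 of the 15 rose in CSD14 against ND14, Tff1 (0.65, limma adjusted p = 0.0207). Tff1 had 3.87 to 4.23 in CSD14 and 3.10 to 3.61 in ND14. The trefoil gene Tff2 was the most variable of these in CSD5, at 4.86 to 7.15 there, against 3.95 to 4.76 in CSD14 and 4.79 to 5.14 in ND14.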
